A study of Homo sapiens with 27 samples.

Results

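The integrated stress response is the program by which a cell that lacks amino acids, carries unfolded protein in the endoplasmic reticulum or meets other strain slows general protein synthesis and switches on a set of repair and supply genes. Stress kinases phosphorylate the initiation factor eIF2. Most translation then falls while translation of the transcription factor ATF4 rises, so that much of ATF4's control is not visible in its mRNA. ATF4, with partners of the C/EBP family, raises genes for amino acid uptake, serine, glycine and asparagine synthesis, one-carbon metabolism and the charging of tRNA. If the strain lasts, the same program raises DDIT3 (the factor CHOP) and other genes tied to growth arrest and cell death.

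Described here are 35 genes of this response in a time course of LS174T, a human colorectal carcinoma cell line. They were taken by symbol as a list of established ATF4 pathway genes, chosen with earlier results of these data known. Of the 35, 33 had a probe that the platform annotation assigns to 1 gene. HERPUD1 and CARS1 were not analysed here. ALDH1L2, a mitochondrial folate enzyme, was detected on 1 of 27 arrays and was not tested. The remaining 32 members were tested among 13471 genes, out of 20035 genes with a probe. For each gene the probe with the highest mean in the authors' normalised matrix was used, and levels are normalised log2 intensities, which can be compared between arrays for 1 gene but not between genes.

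All 27 arrays come from cells called pN1-LS174T. The SNAI1 line carries mouse Snail1 with an HA tag (mSnail1-HA) under doxycycline control. The LEF1 line carries mouse Lef1 with the same tag (mLef1-HA) in the same way. The control line is labelled as having no overexpression, and the descriptions of its arrays begin with Luc. Snail1 is a repressor that drives epithelial cells towards a mesenchymal state, and Lef1 is a DNA-binding partner of beta-catenin. Transgenes were induced with 0.1 µg/ml doxycycline, which was replaced at 48 h. For the control line there were 9 arrays, with 2 each at 0 and 6 h and 1 each at 3, 24, 48, 72 and 96 h. For the SNAI1 line there were 11, with 2 each at 0, 6, 48 and 96 h and 1 each at 3, 24 and 72 h. For the LEF1 line there were 7, with 2 each at 0, 6 and 72 h and 1 at 24 h. Whether replicates were separate cultures is not stated in the labels, so p-values measure only the spread between these arrays, which may be technical, and it is not stated either whether a line is 1 clone.

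The arrays fall into 2 sets by the form of their detection p-values. Set 1 holds 18 arrays (11 SNAI1 and 7 control arrays) with 18241 to 19683 probes detected. Set 2 holds 9 arrays (all 7 of the LEF1 line, 1 control array at 0 h and 1 at 6 h) with 14766 to 15918 detected. The human SNAI1 probe was detected on none of the 11 arrays of the SNAI1 line, and since the transgene is of mouse this probe checks nothing. CDH1 (E-cadherin, a gene that Snail1 represses) lay between 11.33 and 11.42 at 0 h in the SNAI1 line and at 9.75 at 72 h. The human LEF1 probe in the LEF1 line went from 4.61 and 5.16 at 0 h to between 9.19 and 9.63 at 72 h. That transgene is of mouse too, and how far this probe reads it was not tested. In the SNAI1 line the same probe read 5.85 to 6.68 at 0 h and 11.81 at 72 h. Its signal thus rose in both lines and was higher at 72 h in the SNAI1 line. Of 13 colon epithelial markers 9 were detected on all 27 arrays, among them EPCAM and CDX2, while MUC2 was on 26, VIL1 and CEACAM5 on 24 and KRT20 on 7. Of 13 markers of other cell types the macrophage marker CD68 was detected on all 27 arrays, CD14 on 10, DCN on 5 and LUM on 4. Of the remaining 9, 5 were detected on 1 or 2 arrays, and PECAM1, CDH5, MYH11 and DES on 0.

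One pair of arrays stood apart for these genes. At 6 h in the LEF1 line, 31 of the 32 members read higher on replicate 2 than on replicate 1, with a median gap of 0.87 log2 units, against a median absolute gap of 0.31 over all genes. DDIT3 was at 7.27 and 9.11, TRIB3 at 11.43 and 12.81, and CHAC1 at 4.45 and 7.38. The labels of replicate 1 of this pair conflict, with 6 h in the title and 0 h under time, and it was taken as 6 h. The spread of this pair enters every test below, because groups with 1 array take their error from the 9 groups with 2. So do the gaps of the control pairs at 0 and 6 h, each of which holds an array of either set. Their median absolute gaps over the members were 0.37 and 0.36. The control 0 h mean in every control-adjusted comparison with 0 h thus averages both sets, with ATF5 at 10.35 and 8.19 and SLC7A5 at 13.33 and 11.94. Replicate 2 also read higher for 28 members at 0 h and for 24 at 72 h in the LEF1 line, with median gaps of 0.31 and 0.22.

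ATF4 with a C/EBP partner binds a composite element whose core is TGATGNAA. It was searched on both strands of the 300 bases around each start site (250 before, 50 after) in RefSeq's promoter table for GRCh38.p14, in which 30 of the 35 members had at least 1 window. The element was present for 12 of these 30 members (40%), against 4.46% of all 27305 genes in the table. The stretches below show the 7 members with levels here in which it lay before the start site, with the element in capitals; in CHAC1, AARS1 and GARS1 it reads on the opposite strand and is shown as its reverse complement, and every stretch is 5′ to 3′ on the gene's own strand. ASNS and CHAC1 are shown at greater length because both are standard reporters of ATF4 activity.
ASNS, chr7:97872423-97872522, minus strand, bases -114 to -15: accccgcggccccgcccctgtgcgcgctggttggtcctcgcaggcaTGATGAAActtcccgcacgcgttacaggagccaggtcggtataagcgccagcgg
CHAC1, chr15:40953221-40953320, plus strand, bases -250 to -151: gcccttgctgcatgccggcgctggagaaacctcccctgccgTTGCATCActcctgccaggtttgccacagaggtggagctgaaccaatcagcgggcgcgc
ATF3, chr1:212565205-212565234, plus strand: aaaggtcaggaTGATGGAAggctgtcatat
CEBPG, chr19:33374060-33374089, plus strand: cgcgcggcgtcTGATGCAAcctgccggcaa
SLC1A5, chr19:46784893-46784922, minus strand: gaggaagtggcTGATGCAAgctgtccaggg
AARS1, chr16:70289675-70289704, minus strand: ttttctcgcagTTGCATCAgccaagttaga
GARS1, chr7:30594834-30594863, plus strand: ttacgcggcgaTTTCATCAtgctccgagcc

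The element in ASNS starts 68 bases before the start site and that in CHAC1 209 bases before it. Of the 2 members with no levels here, HERPUD1 also had it before the start site and in CARS1 it spans the start. SLC7A1, SLC3A2 and NARS1 had it after the start. The endoplasmic reticulum stress element, searched in the same way, was in 0 of the 30 members' windows and in 0.0916% of all genes. A match describes these letters only, and no match says nothing of a factor's binding.

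In the SNAI1 line most members read below their 0 h mean at 24 and 48 h (24 and 25 of 32) and above it at 72 and 96 h. Their median change from the line's own 0 h was -0.05 at 3 h and -0.13 at 6 h, then -0.23 at 24 h and -0.43 at 48 h. It was 1.02 at 72 h and 1.35 at 96 h, with 29 and 31 of 32 members above their 0 h mean. Over all genes the median change lay between 0.00 and 0.04 at each of these times. For 19 of 32 members the lowest mean of the course was at 48 h, and for 26 the highest was at 96 h. These are levels in whole cultures, in which fewer cells of a type and less RNA per cell cannot be told apart.

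**Figure D1:**
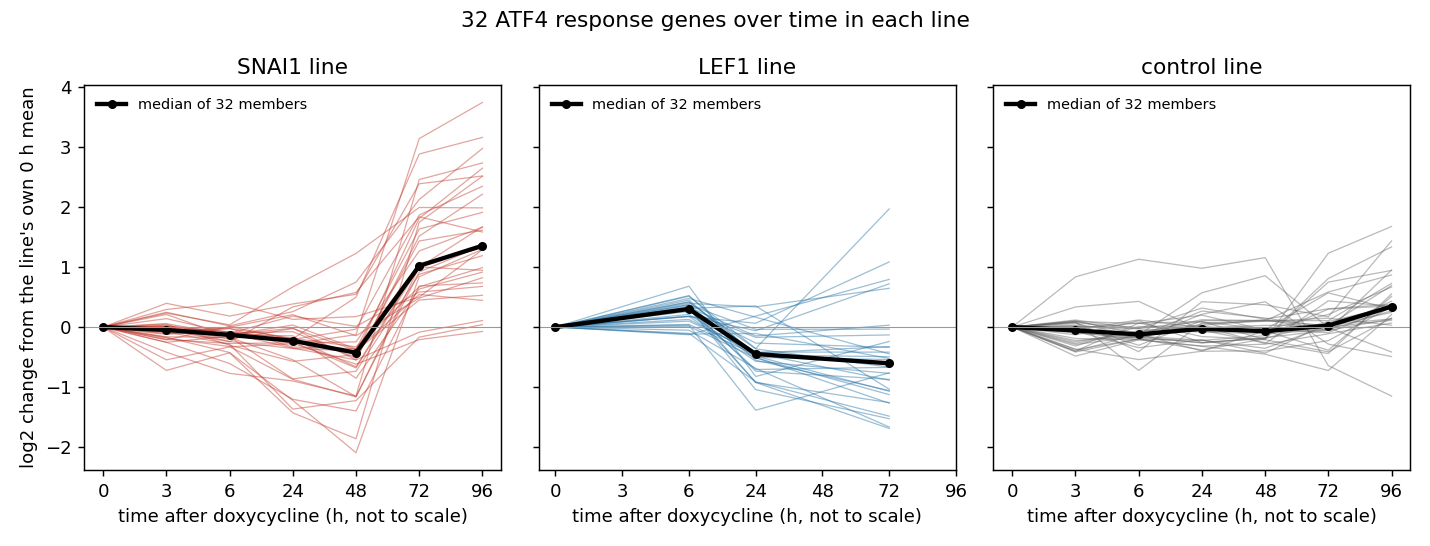
Change in normalised log2 intensity from the line's own 0 h mean (y axis) against time after doxycycline in hours (x axis, evenly spaced), 1 thin line per member and the median of the 32 members in black, for the SNAI1, LEF1 and control lines. In the SNAI1 line the median falls to -0.43 at 48 h and stands at 1.35 at 96 h, the LEF1 line's is -0.60 at 72 h, and the control line's is 0.34 at 96 h.

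The comparison of 72 and 96 h with 24 and 48 h in the SNAI1 line, less the same change in the control line, asks whether the late level exceeds the middle level beyond what time in culture with doxycycline gives. Of the 32 members 13 rose and 0 fell at an adjusted p under 0.05 (limma with Benjamini-Hochberg adjustment over all 13471 genes), where 4.33% of all genes were called, 2.31% higher and 2.02% lower. All 32 changes were positive, with a median of 1.39 against 0.03 over all genes, and 25 had an unadjusted p under 0.05. That of SHMT2 was -0.12 without the control array at 96 h, where 72 h is the only late time in both lines. The members called were STC2, CHAC1, SLC1A5, SLC3A2, TRIB3, SLC7A5, WARS1, PPP1R15A, PSAT1, PSPH, ASNS, CEBPB and MTHFD2. On the arrays of the SNAI1 line alone, every tested member had all 3 late arrays above all 3 middle arrays, which 22.6% of all genes did. In the control line, with 2 arrays on each side, 17 members had both late arrays above both middle arrays and 4 had them below (backgrounds 27.1% and 28.6%). The 10 arrays that this comparison uses all belong to set 1.

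The count depended on single arrays, each of which holds a whole time point or much of one. Here and below, where the array left out was a line's only one at a time, that time dropped from both lines compared. Without the control array at 96 h the late level is thus that of 72 h alone. Within array set 1 the control line has 1 array per time, so that fit takes no spread from the control line. It was 4 without the control array at 96 h, 5 without that at 48 h and 6 without that at 24 h, and it was 6 without the SNAI1 array at 24 h, 8 without replicate 1 at 48 h and 8 without replicate 2 at 96 h. It was 19 without either replicate of the LEF1 line at 6 h, 16 with the LEF1 line left out, 23 within array set 1, and 27 on the SNAI1 line's arrays with no control subtracted.

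The control line itself moved late. Its members' median change from 0 h was 0.02 at 72 h and 0.34 at 96 h, where 29 of 32 read above 0 h. Between its 24 and 48 h arrays and its 72 and 96 h arrays 27 of 32 members went up and 5 went down, by -1.96 to 1.51. No member and 0 of all genes passed 5% in the control line's late against 0 h comparison by limma (0% called), where 0 members and 527 genes had an unadjusted p under 0.05, nor did any pass its test for a change at any time (0%; 1 member and 1003 genes). In the same comparison of 72 and 96 h with 24 and 48 h, 6 of 13 epithelial markers fell in the SNAI1 line relative to the control line (VIL1 at -2.78, GPA33 at -3.65, also AGR2, CDX1, CDH1 and MUC2), with a median of -1.12 over the 13, and 0 of the 6 tested markers of other cell types were called, 0 of them at an unadjusted p under 0.05. The summed level of the 13 epithelial markers was 13.65 to 14.41 at 24 and 48 h and 13.25 to 13.73 at 72 and 96 h in the SNAI1 line, and 15.37 on both middle arrays and 15.53 to 15.60 in the control line. That of the other cell types stayed between 8.60 and 9.20 on these arrays. Their part in the members' change was not tested.

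**Figure D2:**
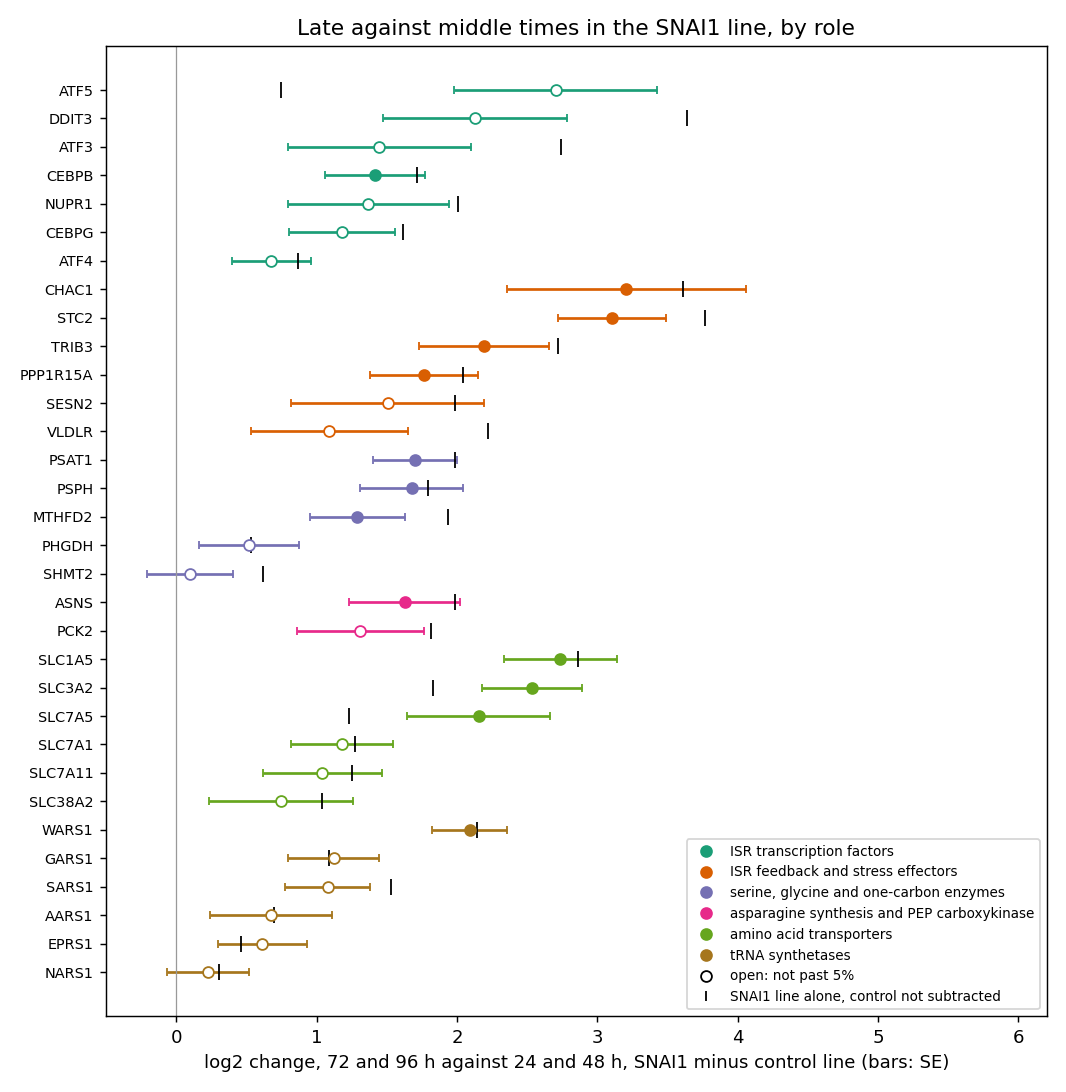
Log2 change between the mean of 24 and 48 h and the mean of 72 and 96 h in the SNAI1 line, less that in the control line (x axis), for 32 members (y axis) coloured by role. Points carry 1 SE, filled points passed 5%, and the upright tick is the SNAI1 line's own change with no control subtracted. All 32 points lie to the right of 0, from 0.10 for SHMT2 to 3.21 for CHAC1.

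Among the 7 transcription factors of the response, 1 rose in this comparison, CEBPB, and all 7 changes were positive (median 1.41). CEBPB, a C/EBP factor that pairs with ATF4 and DDIT3, read 11.28 and 11.25 at 0 h, 11.01 at 24 h, 10.998 and 11.04 at 48 h, 12.53 at 72 h, and 12.95 and 12.90 at 96 h in the SNAI1 line. Its control arrays stayed between 10.87 and 11.22 up to 72 h and reached 11.82 at 96 h. The late SNAI1 arrays thus lay above every other array of both lines, and the change relative to the control line was 1.41 ± 0.35 (SE; limma, adjusted p = 0.037). This call held in 15 of 27 runs with 1 array left out.

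DDIT3, which encodes the factor CHOP, had one of the widest swings but also moved in the control line. In the SNAI1 line it read 7.37 and 7.89 at 0 h, 7.35 at 24 h, 7.18 and 7.83 at 48 h, 10.77 at 72 h, and 11.40 and 11.33 at 96 h. The control arrays read 6.98 and 8.19 at 0 h, 7.68 at 24 h, 7.38 at 48 h, 8.81 at 72 h and 9.26 at 96 h. The late SNAI1 arrays lay above all control arrays. The SNAI1 line's own late level was 12.4-fold its middle level, and the change relative to the control line, 2.13 ± 0.65, did not pass (limma, adjusted p = 0.0889). It passed without the LEF1 line (limma, adjusted p = 0.0356), and within array set 1, where the control line's spread is not measured.

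ATF3, a stress-induced factor downstream of ATF4, followed the same course with a larger share in the control line. In the SNAI1 line it read 6.85 at 24 h, 6.79 and 7.13 at 48 h, 9.22 at 72 h, and 9.998 and 10.12 at 96 h. Control values went from 7.51 and 7.598 at 24 and 48 h to 8.59 and 9.11 at 72 and 96 h. The groups did not overlap in either line, and the difference between the lines, 1.44 ± 0.65, did not pass (limma, adjusted p = 0.258). It passed within array set 1, where the control line's spread is not measured.

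ATF4 itself, whose regulation is mainly translational, changed least among the factors relative to the control line, though not on the SNAI1 line's own arrays. It read 13.31 and 13.48 at 0 h, 13.04 at 24 h, 12.95 and 13.05 at 48 h, 13.85 at 72 h, and 13.91 and 13.94 at 96 h in the SNAI1 line. All late arrays lay above all earlier ones, by far less than those of DDIT3. The change relative to the control line was 0.68 ± 0.28 (limma, adjusted p = 0.209). It passed narrowly within array set 1, where the control line's spread is not measured. The other ATF4 probes read 1.05 and -0.50 in this comparison, so they disagree in direction; neither passed. ATF5, a related factor also controlled in translation, had a change of 2.70 that did not pass (limma, adjusted p = 0.0514) and that came largely from the control line, where it went from 10.25 and 10.43 to 8.63 and 8.12. CEBPG, the partner of ATF4 in the composite element, and NUPR1, a small stress-induced chromatin protein, had changes of 1.18 and 1.37 that did not pass.

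Of the 6 tested effectors 4 rose: TRIB3, CHAC1, PPP1R15A and STC2. TRIB3, a pseudokinase that dampens ATF4 and CHOP activity, read 11.73 and 11.78 at 0 h in the SNAI1 line, was at 10.53 at 24 h and at 9.55 and 9.78 at 48 h, and reached 12.59 at 72 h and 12.97 and 13.12 at 96 h. Control arrays stayed between 11.70 and 12.48. The middle SNAI1 arrays were thus the lowest and the late ones the highest of both lines, and the change was 2.19 ± 0.47 (limma, adjusted p = 0.0156).

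CHAC1 degrades glutathione and is among the genes most specific for ATF4 and CHOP. It was detected on 0 of 3 arrays at 24 and 48 h in the SNAI1 line, where it read 4.33 to 4.73, and on all 3 late arrays, at 8.08, 8.33 and 8.37. Set against the lowest detected signal on the dim arrays, the SNAI1 line's late level was at least 11.6-fold its middle level. Both 0 h arrays, at 5.71 and 5.53, detected it. In the control line it read 5.57 and 5.52 in the middle and 5.32 and 6.58 late, so the late SNAI1 arrays stood above all of them. With the dim arrays at that signal the change relative to the control line was at least 3.14 on the log2 scale. Both floors hold for the main settings only, and under other settings the fitted change was as low as 1.71. The fit across genes gave an adjusted p of 0.0485 (limma), which was 0.0761 with no detection filter. The call of CHAC1 held in 7 of 27 runs with 1 array left out.

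STC2, a secreted glycoprotein induced by endoplasmic reticulum stress, gave the firmest call among the effectors. In the SNAI1 line it read 9.81 and 9.73 at 0 h, 8.34 at 24 h, 7.74 and 8.09 at 48 h, 11.51 at 72 h, and 12.18 and 12.37 at 96 h. Control arrays stayed between 9.62 and 10.20 up to 72 h and read 10.82 at 96 h. Neither the middle nor the late SNAI1 arrays overlapped the control line, and the change was 3.10 ± 0.38 (limma, adjusted p = 0.000383), past 5% whichever array was left out.

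PPP1R15A (GADD34), the subunit that directs a phosphatase to eIF2 and so ends the response, did not dip. It read 9.10 and 9.29 at 0 h, 9.45 at 24 h, 9.87 and 10.02 at 48 h, 11.32 at 72 h, and 12.10 and 12.23 at 96 h, against 9.04 to 9.69 over all 9 control arrays. Its level was thus above the control range from 48 h on, and the late change was 1.77 ± 0.38 (limma, adjusted p = 0.0174). SESN2, a leucine sensor that restrains mTORC1, was dim: it read 5.29 at 24 h and 5.69 and 5.22 at 48 h, and 7.29, 7.23 and 7.61 late, against 4.54 to 5.55 in the control line. Its late arrays stood clear of every control array, yet the change of 1.505 ± 0.69 did not pass (limma, adjusted p = 0.264). VLDLR, a lipoprotein receptor induced by ATF4, had a change of 1.09 that did not pass (limma, adjusted p = 0.333), with 7.09 and 7.28 late in the control line against 7.53, 8.11 and 7.91 in the SNAI1 line.

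**Figure D3:**
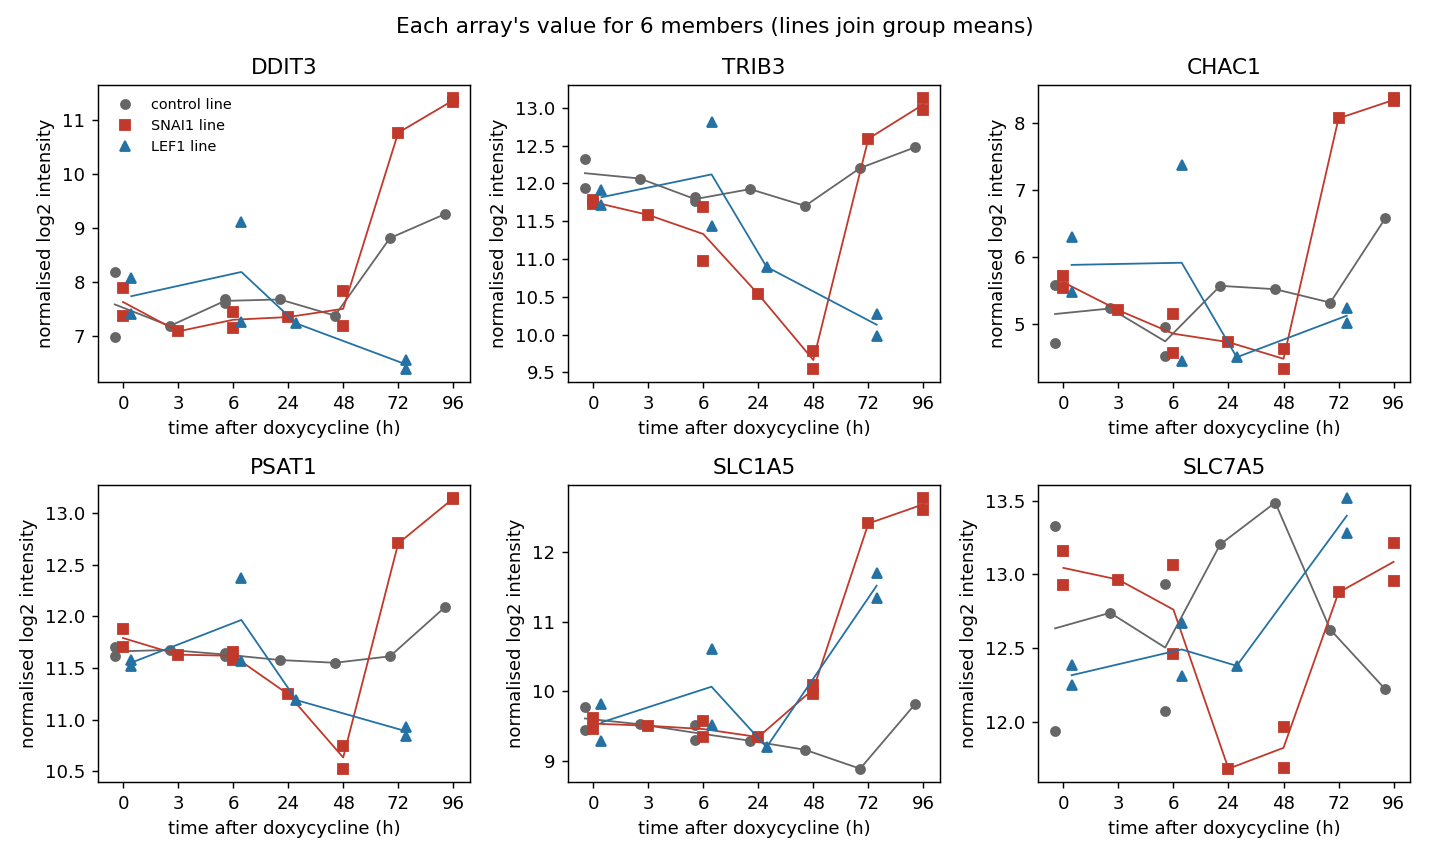
Normalised log2 intensity of each array (y axis) against time after doxycycline in hours (x axis, evenly spaced) for DDIT3, TRIB3, CHAC1, PSAT1, SLC1A5 and SLC7A5, with 1 point per array and lines through the group means. The late SNAI1 arrays lie above every control array for 5 of the 6 genes, and for SLC7A5 they are back at the 0 h level after a low of 11.68 to 11.96.

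The enzymes of serine, glycine and one-carbon metabolism held 3 of 5 tested members that rose. PSAT1, the aminotransferase of serine synthesis, read 11.70 and 11.88 at 0 h in the SNAI1 line, 11.25 at 24 h, 10.52 and 10.74 at 48 h, 12.71 at 72 h, and 13.14 and 13.15 at 96 h. The control line stayed between 11.55 and 12.09. The 48 h arrays were below and the late arrays above every control array, and the change was 1.70 ± 0.30 (limma, adjusted p = 0.00495).

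PSPH, the phosphatase that completes serine synthesis, followed PSAT1: it read 9.29 and 9.37 at 0 h, 9.08 at 24 h, 8.74 and 8.56 at 48 h, 10.32 at 72 h, and 11.02 and 10.97 at 96 h. The control line lay between 8.63 and 9.58, below all late SNAI1 arrays, and the change was 1.68 ± 0.37 (limma, adjusted p = 0.0182). The other PSPH probe gave 1.175 and did not pass (limma over probes, adjusted p = 0.0827). MTHFD2, a mitochondrial folate enzyme, read 10.52 and 10.86 at 0 h, 10.73 at 24 h, 10.21 and 10.45 at 48 h, 12.32 at 72 h, and 12.49 and 12.71 at 96 h. Control arrays lay between 10.64 and 11.68, and the change of 1.29 ± 0.34 passed narrowly (limma, adjusted p = 0.0479, and 0.0523 without the LEF1 line). The call of MTHFD2 held in 7 of 27 runs with 1 array left out. PHGDH, the first enzyme of serine synthesis, had a change of 0.52, and SHMT2, which makes glycine in mitochondria, one of 0.10; neither passed.

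ASNS, asparagine synthetase, read 11.94 and 12.29 at 0 h in the SNAI1 line, 11.25 at 24 h, 10.81 and 11.10 at 48 h, 13.12 at 72 h, and 12.94 and 13.19 at 96 h. The control line lay between 11.74 and 12.55, above all middle and below all late SNAI1 arrays. The change was 1.63 ± 0.40 (limma, adjusted p = 0.032), and with the mean of its probes the adjusted p was 0.0511. The other ASNS probe gave 1.55 and did not pass (limma over probes, adjusted p = 0.149). The call of the probe used here held in 18 of 27 runs with 1 array left out. PCK2, the mitochondrial phosphoenolpyruvate carboxykinase, had a change of 1.31 that did not pass (limma, adjusted p = 0.129).

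Of the 6 amino acid transporters 3 rose, SLC1A5, SLC3A2 and SLC7A5. SLC1A5 (ASCT2), which takes up glutamine, read 9.45 and 9.62 at 0 h, 9.34 at 24 h, 9.97 and 10.09 at 48 h, 12.41 at 72 h, and 12.60 and 12.78 at 96 h in the SNAI1 line. The control line lay between 8.89 and 9.82, below the 48 h arrays and far below the late ones. The change was 2.74 ± 0.40 (limma, adjusted p = 0.00137).

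SLC3A2 and SLC7A5 are the heavy and light chains of the LAT1 exchanger for large neutral amino acids, and for both a lower late level in the control line enters the value. SLC3A2 read 11.71 and 11.57 at 0 h, 10.78 at 24 h, 10.87 and 10.93 at 48 h, 12.52 at 72 h, and 12.72 and 12.92 at 96 h in the SNAI1 line, and went from 11.81 and 12.02 in the middle to 11.31 and 11.11 late in the control line. The lines moved in opposite directions, and the change was 2.53 ± 0.36 (limma, adjusted p = 0.00103). The other SLC3A2 probe gave 3.25 (limma over probes, adjusted p = 0.00714).

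SLC7A5 read 13.16 and 12.93 at 0 h, 11.68 at 24 h, 11.68 and 11.96 at 48 h, 12.88 at 72 h, and 12.95 and 13.22 at 96 h in the SNAI1 line. The control line went from 13.20 and 13.49 at 24 and 48 h to 12.63 and 12.22 late. The late SNAI1 arrays overlapped the 0 h arrays, so the level returned and did not exceed its start, and the change of 2.15 ± 0.51 (limma, adjusted p = 0.0282) includes a change of -0.92 in the control line. Without the LEF1 line the adjusted p was 0.062 (limma).

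SLC7A11 (xCT), the cystine importer that feeds glutathione synthesis, did not dip. It read 6.37 and 6.57 at 0 h, 6.81 at 24 h, 7.27 and 6.82 at 48 h, 8.31 at 72 h, and 8.04 and 8.06 at 96 h in the SNAI1 line, against 5.87 to 7.001 in the control line. Neither its value at 24 and 48 h, 0.61 ± 0.44 (limma, adjusted p = 0.627), nor the late change of 1.04 ± 0.42 passed (limma, adjusted p = 0.199), whereas the test for a change at any time did (limma's moderated F, adjusted p = 0.0385). SLC7A1, which carries cationic amino acids, and SLC38A2 (SNAT2), a carrier of small neutral amino acids, had changes of 1.18 and 0.75 that did not pass.

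Of the 6 tested tRNA synthetases 1 rose, WARS1, which charges tRNA with tryptophan. It read 10.15 and 10.24 at 0 h, 10.17 at 24 h, 9.63 and 9.66 at 48 h, 11.70 at 72 h, and 12.33 and 12.47 at 96 h in the SNAI1 line, and 9.87 to 10.54 over all control arrays. The late arrays were above the whole control range by over 1 unit, and the change was 2.09 ± 0.27 (limma, adjusted p = 0.000475), past 5% whichever array was left out. Its other probe gave 2.34 (limma over probes, adjusted p = 0.000781). The synthetases for glycine and serine, GARS1 and SARS1, had changes of 1.12 and 1.08 that did not pass (limma, adjusted p = 0.0706 and 0.0649). The changes of AARS1, EPRS1 and NARS1, which charge alanine, glutamate with proline, and asparagine, were 0.67, 0.61 and 0.22.

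The presence of the composite element did not sort the members by this change. The 10 tested members with it had a median of 1.31 with 4 called, and the 18 with a window but no element had a median of 1.46 with 8 called.

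The late level was also set against 0 h. Averaged over 24 to 96 h and relative to the control line, only 3 of 32 members passed, PPP1R15A at 1.68, SLC1A5 at 1.90 and WARS1 at 0.95, all higher. That is 9.38% of the members beside 8.72% of all genes (3.91% higher and 4.8% lower), so the share is near the background. The count was 1 without the control array at 72 or 96 h or the SNAI1 array at 72 h, and 5 without replicate 1 of the control line at 0 h or the 24 h array of either line. With the times split after the values were seen, 0 of 32 members passed at 24 and 48 h by limma (background 2.65%, 1.13% higher and 1.52% lower; median -0.31; 8 members and 1737 genes at an unadjusted p under 0.05) and 9 rose and 0 fell at 72 and 96 h (background 13.2% called either way, 6.27% higher and 6.93% lower; median 1.09 against 0.03 over all genes).

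The 9 were PPP1R15A, STC2, MTHFD2, SLC7A11, SLC3A2, SLC1A5, SLC38A2, SARS1 and WARS1. SLC1A5 had the highest value, 3.27 ± 0.42 (limma, adjusted p = 0.000117), followed by PPP1R15A at 2.57 ± 0.40 (limma, adjusted p = 0.000594). SLC38A2 read 9.85 and 9.98 at 0 h, 10.58 at 24 h, 11.20 and 11.08 at 48 h, 11.90 at 72 h, and 11.75 and 12.05 at 96 h, while the control line ranged from 9.53 to 10.60. It thus climbed through the times at which most members dipped, and its value at 72 and 96 h was 1.92 ± 0.53 (limma, adjusted p = 0.0274). The count of 9 was 4 without replicate 1 of the SNAI1 line at 0 h, 5 without the control or the SNAI1 array at 72 h, and 15 without either LEF1 array at 6 h.

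Against 0 h in the SNAI1 line alone, 19 of 32 members had all 3 middle arrays below both 0 h arrays and 4 had them all above (backgrounds 21% and 24.9%). The 4 were ATF5, PPP1R15A, SLC7A11 and SLC38A2. All 3 late arrays were above both 0 h arrays for 29 members and below them for 0 (backgrounds 33% and 29.8%), and SLC7A5, EPRS1 and NARS1 were the exceptions.

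Tests over all time points for a change at any time relative to the control line called 7 of 32 members in the SNAI1 line (background 7.07%): PPP1R15A, STC2, PSAT1, SLC7A11, SLC3A2, SLC1A5 and WARS1. The lowest adjusted p was 0.000923, for WARS1 (limma's moderated F). The count was 3 without the control array at 96 h. At 3 and 6 h no member and no other gene was called by limma (0%), and 0 members and 339 genes had an unadjusted p under 0.05.

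In the LEF1 line most members read lower at 24 and 72 h than at 0 h. Their median change from the line's own 0 h was 0.30 at 6 h, where the replicates disagree as given above, -0.45 at 24 h and -0.60 at 72 h, and the lowest mean was at 72 h for 20 of 32. All arrays at 72 h lay below both 0 h arrays for 22 members and above them for 5 (backgrounds 24.1% and 27%). Relative to the control line over 24 and 72 h, 0 of 32 passed by limma (background 1.16%, 0.891% higher and 0.267% lower; 9 members and 1578 genes at an unadjusted p under 0.05), 7 of 32 values were positive, and the median was -0.52. At 6 h no member and no other gene was called by limma (0%), and 1 member and 353 genes had an unadjusted p under 0.05.

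At 72 h alone, a comparison added after the values were seen, SHMT2 fell and SLC1A5 rose relative to the control line (background 2.63%). SHMT2 read 12.65 and 12.96 at 0 h, 12.30 at 24 h, and 11.51 and 11.86 at 72 h in the LEF1 line, while the control line went from 12.21 and 12.83 to 12.95. Relative to the control line it fell by 1.56 on the log2 scale, with an SE of 0.36 (limma, adjusted p = 0.0374). Against the line's own 0 h its change was -1.12 (limma within array set 2, adjusted p = 0.0593). SLC1A5 read 9.29 and 9.82 at 0 h, 9.20 at 24 h, and 11.34 and 11.70 at 72 h, against 8.89 for the control line at 72 h. Relative to the control line its rise was 2.69 ± 0.48 (limma, adjusted p = 0.00764), and from the line's own 0 h it was 1.97. SLC1A5 was the 1 member called at any time in this line (background 1.76%; limma's moderated F, adjusted p = 0.0286). The count at any time was 7 without replicate 1 of the LEF1 line at 6 h and 3 with the replicate number as a block. The count of 2 at 72 h was 6 without replicate 2 of the control line at 0 h, 5 without either LEF1 array at 6 h, and 1 without any of 12 other arrays, and it was 5 with the replicate number as a block.

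The 5 members above 0 h on both 72 h arrays of the LEF1 line were ATF5, SLC7A5, SLC3A2, SLC1A5 and SLC38A2, 4 of them transporters. SLC7A5 went from 12.25 and 12.38 to 13.28 and 13.52, SLC3A2 from 11.39 and 11.42 to 11.96 and 12.29, and SLC38A2 from 10.75 and 11.09 to 11.32 and 11.82. Relative to the control line these gave 1.09, 1.00 and 1.03, none past 5%. The SNAI1 and LEF1 comparisons share the control arrays, so the values stand side by side only: at 72 and 96 h the SNAI1 line's values for SLC7A5, SLC3A2 and SLC38A2 were 0.15, 1.42 and 1.92. The value for SLC7A5 turned to -0.063 against the line's own 0 h and to -0.55 without replicate 1 of the control line at 0 h. It was -0.16 without the control array at 96 h, a run in which 72 h is the only late time.

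The SNAI1 and LEF1 lines were then compared directly, each against its own 0 h and with no control array. As given above, the LEF1 probe rose in both lines. Over the late times the lines share, 24 and 72 h, MTHFD2 was higher in the SNAI1 line by 1.61 ± 0.35 (limma, adjusted p = 0.0237) and WARS1 by 1.12 ± 0.28 (limma, adjusted p = 0.0447), 2 of 32 members where 2.74% of all genes were called. The count was 0 without the SNAI1 array at 72 h, replicate 1 of the SNAI1 line at 0 h or either LEF1 array at 0 h. Without the SNAI1 array at 72 h only 24 h was left to compare. Without the 24 h array of either line the comparison became that at 72 h alone, given next. The count was 7 without either LEF1 array at 6 h and 5 without either control array at 0 h. At 72 h alone, chosen after the values were seen, 15 members were higher in the SNAI1 line and 0 lower (4.74% of all genes called, 2.21% higher), with a median difference of 1.72 against -0.01 over all genes. The 15 became 7 without replicate 1 of the SNAI1 line at 0 h and 9 without replicate 2 of the LEF1 line at 0 h, and 20 without either LEF1 array at 6 h. They rest on 1 array of the SNAI1 line at 72 h; the line lies wholly in set 1 and the LEF1 line wholly in set 2, so that set and line cannot be told apart, although each line's change is taken within its own set.

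Among the factors DDIT3, ATF3 and CEBPB were called. DDIT3 changed from 7.37 and 7.89 to 10.77 in the SNAI1 line and from 7.41 and 8.07 to 6.39 and 6.56 in the LEF1 line, so that the lines read in opposite directions from overlapping 0 h arrays. The difference was 4.40 ± 0.78 (limma, adjusted p = 0.00411), the largest of the 32. ATF3 differed by 3.33 ± 0.78 (limma, adjusted p = 0.0221), and CEBPB by 2.15 ± 0.42 (limma, adjusted p = 0.0079).

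Among the effectors TRIB3, PPP1R15A, STC2 and VLDLR were called, from 2.16 for PPP1R15A to 3.52 for VLDLR. VLDLR was detected on neither LEF1 array at 72 h, so its difference was bounded at 2.61 or more with those arrays set to the lowest detected signal. That bound holds for the main settings only, and under others the fitted difference was as low as 1.65. STC2 went from 9.99 and 10.43 to 8.78 and 9.14 in the LEF1 line and from 9.81 and 9.73 to 11.51 in the SNAI1 line, with no overlap late, and differed by 3.00 ± 0.46 (limma, adjusted p = 0.00126). The enzymes PSAT1, SHMT2, MTHFD2, ASNS and PCK2 were called at 1.58 to 2.70, the highest being MTHFD2 (limma, adjusted p = 0.00114). SLC7A11 was the single transporter called, at 2.36, and SARS1 and WARS1 the synthetases, at 1.93 and 1.84. For SLC7A11 only 1 LEF1 array at 72 h detected it, and under other settings its difference was as low as 1.43. SLC1A5, which rose in both lines, differed by 0.91 ± 0.48 and did not pass (limma, adjusted p = 0.379), and SLC7A5 was lower in the SNAI1 line by a value of -1.25 that did not pass either.

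**Figure D4:**
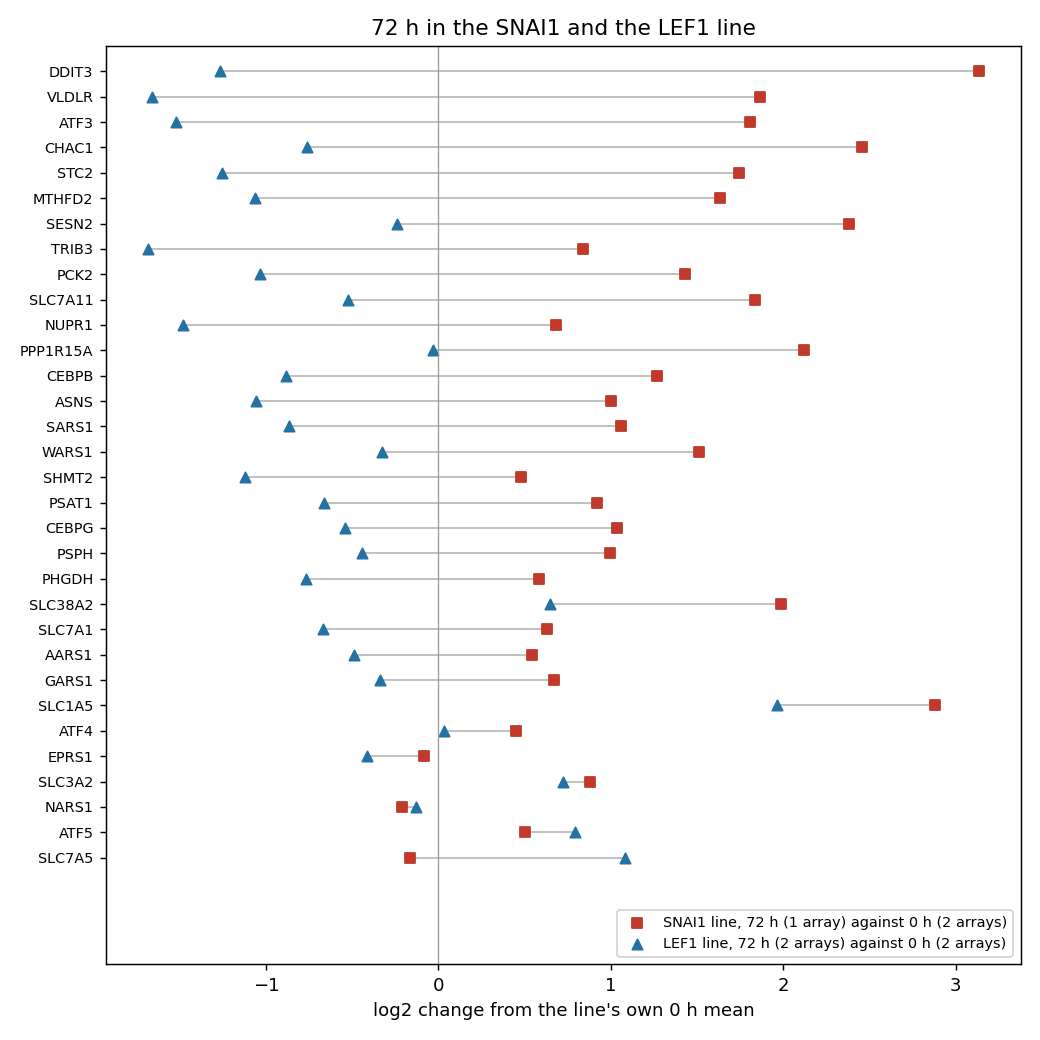
Log2 change at 72 h from the line's own 0 h mean (x axis) for 32 members (y axis), squares for the SNAI1 line (1 array at 72 h) and triangles for the LEF1 line (2 arrays), sorted by the difference. The gap runs from DDIT3 (4.40) at the top to SLC7A5 (-1.25) at the bottom, and 29 of 32 members lie further right in the SNAI1 line.

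Other genes of the pathway were counted in the comparison of 72 and 96 h with 24 and 48 h in the SNAI1 line. Their lists, too, were chosen with earlier results of these data known. Of 31 further tested targets of ATF4 and CHOP outside the members 8 rose and 0 fell, with 29 of 31 values positive and a median of 0.88 against 0.03 over all genes. Among them were MAP1LC3B (1.94; limma, adjusted p = 0.000475), an autophagosome protein, INHBE (4.01; adjusted p = 0.00708), a secreted inhibin subunit, and CBS (3.33; adjusted p = 0.0092), an enzyme of transsulfuration. Of the 16 genes for eIF2 kinases, eIF2, eIF2B and phosphatase subunits 0 were called, 0 of them at an unadjusted p under 0.05, and their median was -0.01.

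Of 23 tested genes of the ATF6 and XBP1 branches of the unfolded protein response 4 rose and 0 fell, HSPA5 (1.47; limma, adjusted p = 0.00294), the chaperone BiP, ATF6, DNAJB11 and DNAJC3, and the median was 0.74. Of 12 NRF2 targets 1 rose, HMOX1 (1.71; adjusted p = 0.0166), which breaks down haem, and of 12 immediate early genes 1 rose, IER3 (2.08; adjusted p = 0.048). With 4.33% of all genes called in this comparison, 1 of 12 is near the background. None of the 12 other cytosolic tRNA synthetases was called by limma (median 0.16; 2 at an unadjusted p under 0.05), nor any of the 16 mitochondrial ones (median -0.29; 5 at an unadjusted p under 0.05). Of the 9 other one-carbon and folate enzymes 0 rose and 1 fell, SHMT1, the cytosolic counterpart of SHMT2, by 1.23 (limma, adjusted p = 0.0481), a share that is also near the background.

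**Figure D5:**
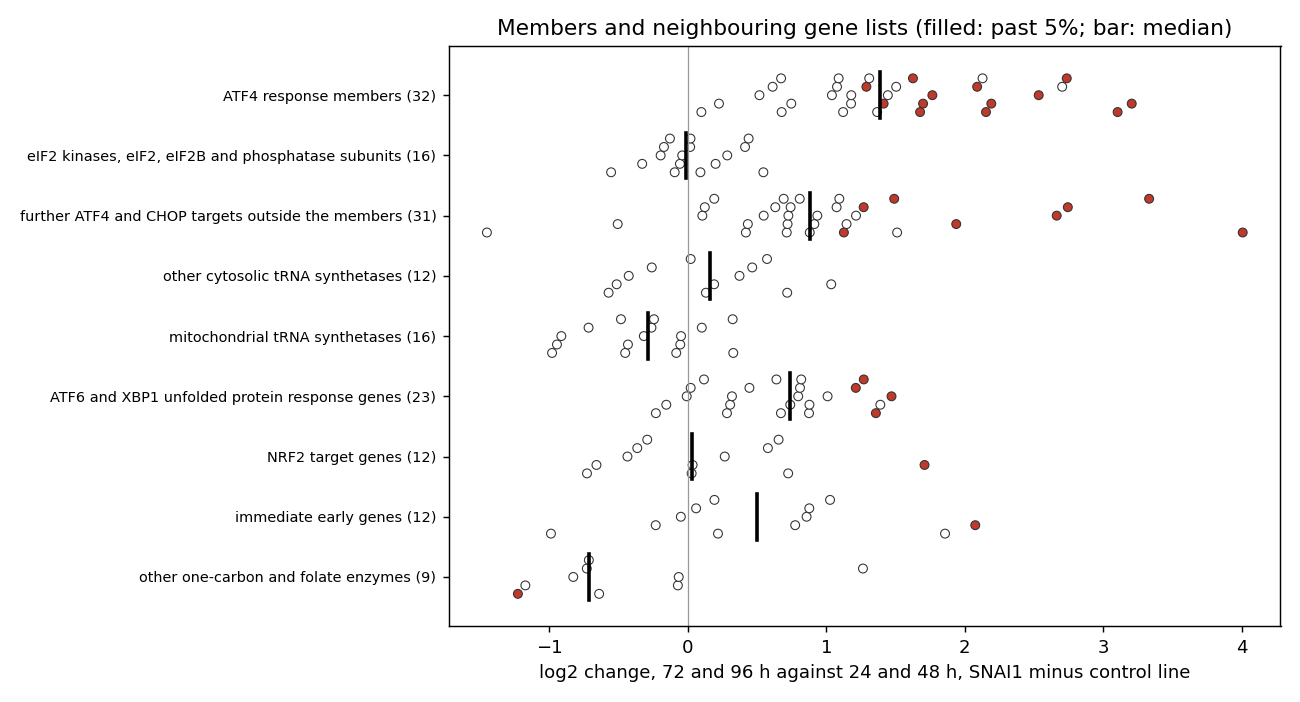
Log2 change between 24 and 48 h and 72 and 96 h in the SNAI1 line minus the control line (x axis) for the 32 members and 8 neighbouring lists (y axis, number tested in brackets), 1 point per gene, filled where past 5%, with the median as a bar. Medians are 1.39 for the members, 0.88 for further ATF4 and CHOP targets, 0.74 for the ATF6 and XBP1 genes and -0.01 for the eIF2 group.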

How the data were processed

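A table of log2 probe values, not normalised between arrays, was deposited by the authors, with a detection p-value for each probe and array per the file headers. The authors deposited a matrix as well, whose log2 values share their quantiles across arrays. The labels name biotinylated cRNA (Ambion MessageAmp) on Illumina arrays. Scanner software and any background step: not given in the sources used here. Of 47323 probes 32 were dropped for missing or infinite values, and in the platform annotation 30113 have 1 gene, 8 several and 17202 none.

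Intensities were corrected with limma's neqc (version 3.58.1, R 4.3.3: normexp, its negative controls derived by limma from detection p-values, then quantile normalisation, offset 16). A gene, represented by 1 probe, was tested where detection p was below 0.01 on 2 or more arrays. One limma fit held a mean for each of 18 groups (9 residual degrees of freedom, prior 4.90), with Benjamini-Hochberg adjustment at 5% over 13471 genes. The number of arrays limits the precision. The steps were tested on simulated data.

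The members and all lists were chosen with earlier results of these data known. By the rule for named genes, array values were given for ATF4, DDIT3, ATF3, TRIB3, CHAC1, ASNS, PSAT1, SESN2, SLC7A11 and every member past 5% in the planned comparisons, and up to 4 called genes were named per other list. ATF5, VLDLR, SLC38A2 and SHMT2 were given array values after these were seen, and the comparisons at single phases (24 and 48 h, 72 and 96 h, 72 h) were added after seeing the data. Alternatives were the authors' matrix, no background correction, offset 50, other filters and probe rules, limma's trend and robust options, array set or replicate number as a block, fits within 1 set, other references, and leaving out each array. Figures were drawn with matplotlib 3.10.9.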

Additional observations from a re-analysis of the deposited data

Results flagged for a closer look

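Each value here is a log2 difference between the changes of a pair of lines that passed 5% in limma's test of that difference over all genes. No group has 4 or more arrays, so no array was checked against its group for distance from the others.

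Between 24 and 48 h and 72 and 96 h the SNAI1 line changed more than the control line for 13 members. CHAC1, detected on 0 of 3 SNAI1 arrays at 24 and 48 h, had a fitted difference of 3.206. With those arrays at the lowest detected signal it was at least 3.14 under the main settings, while other settings gave fitted values down to 1.71. Among the other factors and effectors the differences were 3.104 for STC2, 2.192 for TRIB3, 1.766 for PPP1R15A and 1.414 for CEBPB. Among enzymes they were 1.699 for PSAT1, 1.677 for PSPH, 1.626 for ASNS and 1.29 for MTHFD2. Among transporters they were 2.737 for SLC1A5, 2.534 for SLC3A2 and 2.154 for SLC7A5, and WARS1 had 2.09.

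Over 24 and 72 h the SNAI1 line exceeded the LEF1 line by 1.607 for MTHFD2 and by 1.125 for WARS1. At 72 h alone, with 1 SNAI1 array, it did so for 15 members. VLDLR had a fitted difference of 3.524, but it was detected on neither LEF1 array at 72 h. With those arrays at the lowest detected signal the difference was 2.61 or more under the main settings, while other settings gave fitted values down to 1.65. The differences were 4.4 for DDIT3, 3.33 for ATF3, 2.998 for STC2, 2.523 for TRIB3, 2.156 for PPP1R15A and 2.15 for CEBPB. They were 2.696 for MTHFD2, 2.465 for PCK2, 2.057 for ASNS, 1.604 for SHMT2 and 1.583 for PSAT1. SLC7A11 had 2.356, SARS1 1.926 and WARS1 1.838. For SLC7A11 only 1 LEF1 array at 72 h detected it, and other settings gave values down to 1.43.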

How the results depend on the processing

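All counts are of members past 5% by limma, and gene values were recomputed for the 32 members in the comparison of 72 and 96 h with 24 and 48 h and for called or named members in the others. Of these, 719 stayed on their side of 5% under other settings, 56 passed newly and 8 no longer passed; with 1 array left out these were 1653, 20 and 165. Values of uncalled members turned direction in 4 runs: SHMT2 without the control array at 96 h (-0.12 to 0.31 over arrays left out), and SLC7A5 at 72 and 96 h against its own 0 h (-0.063), without replicate 1 of the control line at 0 h (-0.55) and without the control array at 96 h (-0.16; -0.55 to 0.85). STC2, SLC3A2, SLC1A5 and WARS1 passed in the comparison of 72 and 96 h with 24 and 48 h under every setting and leave-out run. That count, 13, was 23 within array set 1 and 27 on the SNAI1 line alone, and 4 to 19 with 1 array left out. Over 24 to 96 h in the SNAI1 line, 3 became 5 with the authors' matrix, no background correction, offset 50 or set 1 alone, 8 against its own 0 h and 9 against the same-time control arrays (1 to 5 with 1 array left out). Its 24 and 48 h count of 0 became 2 with trend and robust, 5 against its own 0 h, 5 against the same-time control and 1 with a replicate block (0 to 3). Its 72 and 96 h count of 9 became 20 in set 1, 24 against its own 0 h, 20 against the same-time control and 15 without the LEF1 line (4 to 15). Its any-time count of 7 became 17, 25 and 11 in set 1, with its own 0 h and with the same-time control (3 to 10). In the LEF1 line the late count of 0 became 4 against its own 0 h and 12 against the same-time control, where line and array set cannot be told apart (0 to 2). Its 72 h count of 2 became 4 with the array set as a block, 9 against its own 0 h, 13 against the same-time control and 5 with the replicate block (1 to 6). Its any-time count of 1 became 2 with the authors' matrix, no background correction, offset 50 or trend and robust, 0 within set 2, 9 and 8 with the other references and 3 with the replicate block (0 to 7). The SNAI1 minus LEF1 count of 2 became 4 with the authors' matrix, no background correction, offset 50, trend and robust or the array set as a block, 1 with the mean of probes and 5 with the replicate block (0 to 15), and the 72 h count of 15 ranged from 7 to 20. The control line's any-time count of 0 became 1 within set 1 (0 to 0). The early, LEF1 6 h and control late counts stayed at 0 (0 to 0). The causes were not tested. Leaving out a line's only array at a time also dropped that time from the line it was compared with. Fits within set 1 take no spread from the control line, which has 1 array per time there. Over all genes, the 583 called in the comparison of 72 and 96 h with 24 and 48 h ranged from 551 to 2533 under other settings and from 135 to 893 with 1 array left out. No label says that replicate numbers pair arrays: of 36 pairs of groups 7 had deviations correlated over 0.1 and 1 under -0.1 (-0.437 to 0.525), and the replicate block gave 16 in place of 13. The -0.437 was between the control line's 0 and 6 h, whose replicates fall in the 2 array sets in opposite order. Within the LEF1 line all 3 pairs of groups correlated, at 0.525, 0.478 and 0.474, a hint from the data of a shared difference between its replicates. Dim probes such as CHAC1 and SESN2 limit what can be read at their low end.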

Other observations

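Targets of ATF4 and CHOP outside the members differed between the lines at 72 h, a comparison chosen after the values were seen: of 31 tested, 9 were higher in the SNAI1 line than in the LEF1 line and 0 lower (4.74% of all genes called, 2.21% higher), with a median of 1.06 against -0.01 over all genes. FGF19, a secreted hormone of the intestine, rose in both lines relative to the control line, by 5.80 ± 0.56 at 72 and 96 h in the SNAI1 line (limma, adjusted p = 1.03e-05) and by 4.35 ± 0.65 at 72 h in the LEF1 line (limma, adjusted p = 0.00255); both comparisons use the control arrays. The chaperone gene HSPA5 also passed in both, at 1.33 ± 0.25 (limma, adjusted p = 0.0024) and 1.29 ± 0.29 (limma, adjusted p = 0.0278). Of the 23 tested ATF6 and XBP1 genes, 2 rose and 2 fell at 72 and 96 h in the SNAI1 line. Those that fell were SDF2L1 at -1.55 (limma, adjusted p = 0.0251) and ERN2 at -1.95 (limma, adjusted p = 0.0333).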
